A study of Drosophila pseudoobscura with 4 samples.

Results

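The mir-959 to mir-964 cluster is a group of microRNA precursors that lie close together and are often processed from 1 transcript. In *D. pseudoobscura*, the rows of the read counts named dps-mir-959 to dps-mir-964 were taken as members, and 2 of the 231 microRNAs counted matched, dps-mir-959 and dps-mir-964. The dataset had 2 libraries from males and 2 from virgin females of a single stock, collected in the wild and reared at 18 °C under 12 h light/dark cycles, and all adults were taken at 7 days of age. All 4 were small RNA libraries prepared from total RNA of adults, with no treatment or transgene in either sex, and the number of flies in a library is not given in the sources used here. Each of the 2 sequencing runs held 1 male and 1 female library. The library number was taken as its run, which is an assumption, since the labels give no run. The study describes the libraries of each sex as biological replicates. The sources used here do not say whether they came from separate cultures, so the p-values measure the spread between these libraries.

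MicroRNAs are short RNAs, cut from hairpin precursors, that pair with messenger RNAs and reduce their translation and stability. The mature product finds its targets mainly through its seed, a stretch near its start, so that members of 1 cluster can have different targets while sharing their transcription. In *D. melanogaster*, this cluster is known for the rapid change of its sequences between species, for its expression in testis, and for a daily cycle of expression in the fat body of adult heads. The mature sequences were not used here.

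The libraries were shallow in reads counted on microRNAs. These were 5697 male and 7111 female in the first run, and 67076 male and 42754 female in the second. They are the library totals used below, not all reads sequenced. The sexes were separated by the microRNAs of the ovary: dps-mir-318 was read 2 and 5 times in males but 287 and 3102 times in females, and its neighbor dps-mir-994 had 0, 1, 48 and 369 in the same order. Every library therefore went with its label.

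By position, the cluster holds more precursors than those with its names. In the annotation used for the counting, 5 precursors lie on chromosome 4 (Muller element B) between 6336564 and 6337789 of the assembly UCI_Dpse_MV25, a stretch of 1226 bases. The first is dps-mir-959, from 6336564 to 6336675. It is followed by dps-mir-2563, the ortholog of dme-mir-960, then by dps_3420, the ortholog of dme-mir-961, and by dps-mir-2509, the ortholog of dme-mir-962. The last is dps-mir-964, from 6337672 to 6337789. The first 4 are packed with 7 to 40 bases between neighbors, while 614 bases separate dps-mir-2509 from dps-mir-964. An ortholog of dme-mir-963 was not analysed here. The whole stretch lies within the span of the protein-coding gene DIP-theta, from 6319770 to 6358887, which encodes a cell surface protein of the immunoglobulin superfamily in *D. melanogaster*. The RefSeq table gives gene spans only, so exon or intron was not resolved, and the strands of the precursors were not compared. Of the 5 precursors, dps_3420 was not analysed here, and the other 4 have counts.

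**Figure D1:**
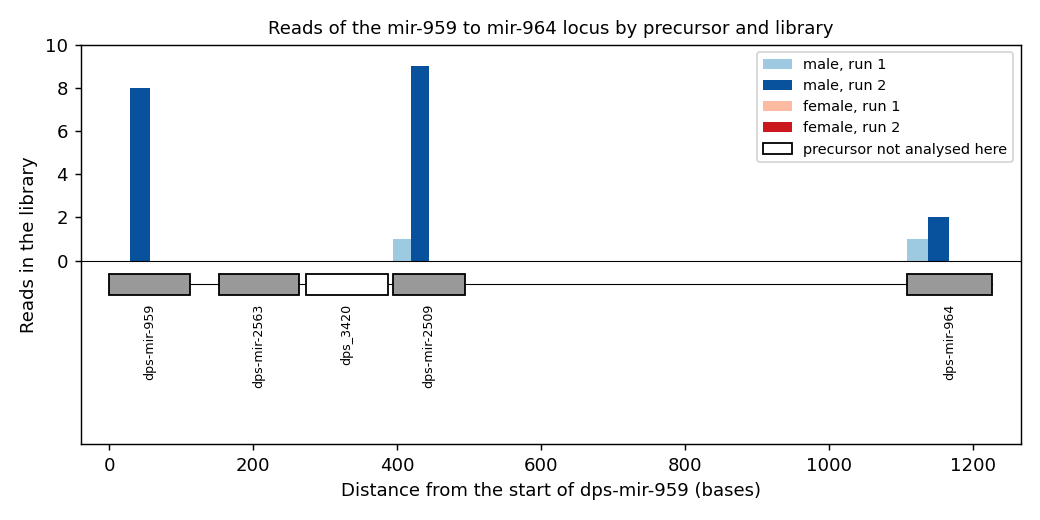
Reads of each precursor of the cluster, by library (bars), above a map of the precursors drawn to scale, with the distance in bases from the start of dps-mir-959 on the x axis and the number of reads on the y axis. The bars belong to male libraries, with up to 9 reads, and neither female library has a read.

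The reads of both members came from males. For dps-mir-959 there were 0 reads in the first male library, 8 in the second and 0 in either female library. Its reads came from a single library, so the sexes overlapped at 0. For dps-mir-964 the first male library gave 1 read and the second 2, whereas the female libraries gave 0. The sexes did not overlap for this microRNA, but a single read separated them in the first run. On CPM, the reads scaled to a library total of 1000000, both male libraries were above both female ones for 15.3% of the 131 microRNAs with a read in any library, so that a separation of this kind was not rare. Fewer cells of a type and less RNA per cell cannot be told apart in whole flies.

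The depth of the first run was too low for these levels. In the second male library, dps-mir-959 had 119 CPM (exact 95% Clopper-Pearson interval 51.5 to 235). At that level, 0.679 reads would come from the first male library and 0.848 from the first female one, and both had 0. The second female library would give 5.10 reads at the same level, and it had 0. Its floor, taken as 3 reads, was 70.2 CPM. The level of dps-mir-959 in the second male library was 1.70-fold that floor. This ratio does not allow for the counting error of the 8 reads, whose interval reaches below that floor. The floors of the first run were 527 CPM in the male and 422 in the female library, above the level in the second male library, so the difference was not detectable there. Reads without molecular identifiers are not independent molecules, and these intervals and floors cover counting error only.

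The level of dps-mir-964 could not be ordered between the sexes. It had 176 CPM in the first male library (exact interval 4.44 to 978) and 29.8 in the second (3.61 to 108), or 103 ± 103 CPM (SD, n = 2). The first of these rests on 1 read. Both were under the floor of 3 reads, which was 44.7 CPM in the second male library, and the floor of the second female library, with 0 reads, was 70.2 CPM. No fold change is given, because both sexes lay at or under the floor. The sum of the 2 members was 1 read in the first male library, 10 in the second and 0 in each female library. It made up 0.0176% and 0.0149% of the male libraries (exact intervals 0.000444 to 0.0978% and 0.00715 to 0.0274%), and the female libraries had 0 reads, with floors of 3 reads at 0.0422% and 0.00702% and exact upper bounds of 0.0519% and 0.00863%. In the second run the summed members were at 2.12-fold the female floor in the male library, with 10 reads against 0. Their interval of 71.5 to 274 CPM overlapped the female one, which ended at 86.3 CPM.

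**Figure D2:**
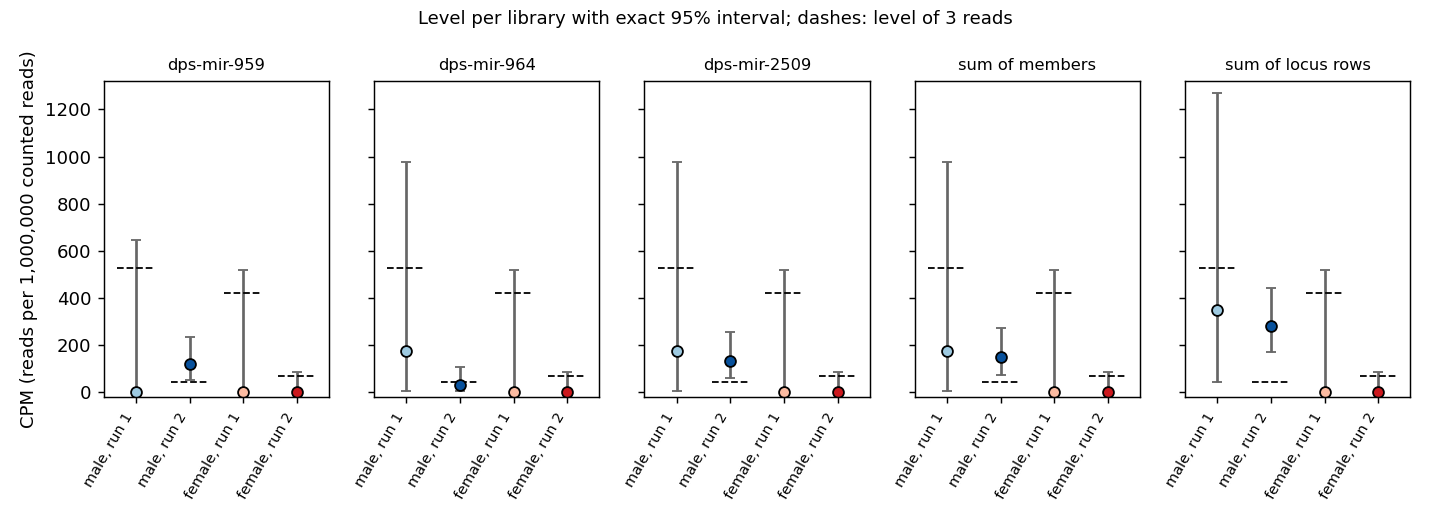
Level in CPM (y axis) in each library (x axis) for both members, for dps-mir-2509, and for the sums over the 2 members and over the 4 counted precursors. Points are the measured levels, bars the exact 95% intervals and dashes the level of 3 reads, and in the second run the male interval of the 4 precursors (from 170.5 CPM) lies above the female upper bound (86.3 CPM).

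In edgeR's quasi-likelihood test with run and sex in the model, dps-mir-964 was not called (adjusted p = 0.593). Its base mean, the mean of the counts scaled by DESeq2's size factors, was 1.04, just above the minimum of 1, and 89.6% of it comes from the single read in the small first male library. With a base mean of 0.433, dps-mir-959 did not pass the filter. Of the members, 1 was therefore tested and 0 called at an FDR under 10% with a difference of 25% or more, where 13.1% of the 84 tested microRNAs were called. In the fit of all 131 microRNAs with at least 1 read, 0 of 2 members were called (edgeR, adjusted p = 0.446 for dps-mir-959 and 0.829 for dps-mir-964), against 6.87% of all. In this fit no member had an unadjusted p under 0.05, the values being 0.112 and 0.354. With every microRNA with a read tested, settings added after seeing the data called dps-mir-959 in limma-voom (adjusted p = 0.0688) and in edgeR with no replicate block (adjusted p = 0.0948), so its call depends on the model. In an exact permutation test over the libraries, two-sided and without regard to run, p was 1 for dps-mir-959 and 0.333 for dps-mir-964. The smallest value that 2 libraries against 2 allow is 0.333. With reads in a single library, no other p was possible for dps-mir-959.

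The neighbors of the members within the locus are shown because their *D. melanogaster* orthologs carry other names of the cluster. The ortholog of dme-mir-962, dps-mir-2509, from 6336958 to 6337057, was read 1 and 9 times in males and never in females. It was not called (edgeR, adjusted p = 0.216), although DESeq2 with the same model called it (adjusted p = 0.0964). With every microRNA with a read tested, limma-voom called it (adjusted p = 0.0102), and edgeR called it with no replicate block (adjusted p = 0.0453) but not with the block (adjusted p = 0.319). These last settings were also added after seeing the data, except the edgeR fit with the block. In the second run, the level of dps-mir-2509 in the male library was 1.91-fold the female floor. Its interval of 61.4 to 255 CPM also reached below that floor and overlapped the female interval, which ended at 86.3 CPM. By contrast, dps-mir-2563, from 6336716 to 6336826, had 0 reads in all 4 libraries, where the floor of the second male library was 44.7 CPM and the exact upper bound 55.0 CPM.

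The members and their neighbors contributed unequal numbers of reads. The 4 counted precursors were read 2 times in males of the first run and 19 times in those of the second. All 21 reads were male, while males supplied 59.3% of the reads counted on microRNAs in the whole dataset. Reads are not replicates, and the exact permutation test over the libraries gave p = 0.333 for this sum, the smallest value possible. Summed, they were at least 4.04-fold higher in the male than in the female library of the second run, where the level in the male was 283 CPM (exact interval 170.5 to 442). At the male level, 12.1 reads would have come from the second female library, which had 0. Over both males the sum was 317 ± 47.9 CPM (SD, n = 2). The levels in the male libraries, 351 and 283 CPM, differed by less than their counting intervals. The first of these rests on 2 reads, under the 527 CPM floor of that library, with an exact interval of 42.5 to 1268 CPM. The small SD therefore does not show that the level was replicated.

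In the second male library dps-mir-959 made up 42.1% of the 19 reads of the locus (exact interval 20.3 to 66.5%) and dps-mir-964 10.5% (1.30 to 33.1%). The share of dps-mir-2509 was 47.4% (24.5 to 71.1%). These intervals overlap for each pair. Per 100 bases of precursor, the counts were 7.14 for dps-mir-959, 9 for dps-mir-2509 and 1.69 for dps-mir-964. As microRNAs are short products cut from the precursors, counts need not scale with precursor length, and these values are a description only. With 0 of 19 reads, dps-mir-2563 had a share of at most 17.6% by the exact interval.

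Further precursors on chromosome 4, on either side of the cluster, differed in their reads. The nearest further precursor on one side, dps-mir-276c, starts 11206 bases beyond dps-mir-964 and had 0 reads in all 4 libraries. As it has paralogs, its reads could have been lost in the counting, which was not tested. On the other side, dps-mir-2565, at 369092 bases from the start of the cluster, had 0 reads in all libraries as well. Further away, at 389628 bases from the start of the cluster, dps-mir-2510 was read once in males of the first run, 29 times in those of the second, and never in females. It was called (edgeR, adjusted p = 0.0537), though not by limma-voom on the same rows (adjusted p = 0.165), which called it when every microRNA with a read was tested (adjusted p = 0.00019). Leaving out the first male library or either female library ended its call in edgeR (adjusted p from 0.157 to 0.608), and without the second male library it fell under the filter. Like dps-mir-2509 and dps-mir-964, it had reads in both male libraries and in neither female library.

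Reads restricted to males were common among the weakly expressed microRNAs. Of the 131 with a read, 25 had reads in males alone and 7 in females alone. The 3 precursors of the cluster with reads had between 3 and 10 in all. Of the 33 microRNAs in that range, 10 had all reads in males, 2 in females and 21 in both sexes. The members belong to the 10, as does dps-mir-2509. Reads in both male libraries and in neither female library were found for 6 microRNAs, among them dps-mir-964 and dps-mir-2509. The second male library is also the deepest, and the part of its depth in these counts was not tested.

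**Figure D3:**
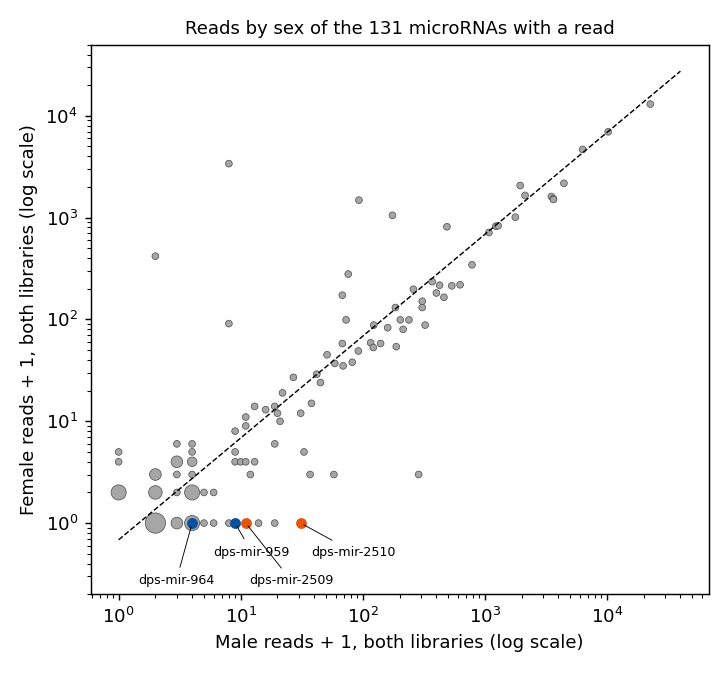
Reads of each of the 131 microRNAs with a read, summed over the 2 male (x axis) and the 2 female libraries (y axis), plus 1 on log axes, with larger points where several microRNAs coincide and a dashed line at the ratio of the total reads of the sexes. The members (blue), dps-mir-2509 and dps-mir-2510 (orange) lie on the lower edge, at 0 female reads and 3, 8, 10 and 30 male reads for dps-mir-964, dps-mir-959, dps-mir-2509 and dps-mir-2510.

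Within the second male library the members were weak. The median of the 123 microRNAs with a read there was 16 reads. A count of at least 8, that of dps-mir-959, was reached by 75 of them, and a count of at least 2, that of dps-mir-964, by 105.

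Among the tested microRNAs, those with a profile over the 4 libraries most like that of dps-mir-964 were found by the distance between log2 CPM values centered on their means. They were dps-mir-969 at a distance of 0.335, dps-mir-2537 at 0.461, dps-mir-932 at 0.509, dps-mir-124 at 0.518 and dps-mir-981 at 0.670. The nearest, dps-mir-969, was read 1 and 2 times in males and once in the second female library, a difference of a single read from dps-mir-964. Each of the 5 had reads in a female library. Of the cluster, dps-mir-2509 lay at a distance of 0.956 and dps-mir-959 at 2.27. The log used a prior count of 2, close to the counts of dps-mir-964 themselves, so this order is only a description.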

How the data were processed

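The data were small RNA libraries of whole adults, 2 male and 2 female, read on a MiSeq. The authors trimmed the reads with Cutadapt, mapped them with HISAT2 and counted them with featureCounts on annotated precursors, leaving out those identical to several regions, and deposited raw counts per microRNA, not normalized. Positions and ortholog names are those of the study's annotation table, and gene spans those of RefSeq.

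Counts were tested across all microRNAs whose base mean in DESeq2 reached 1 by edgeR 4.0.16 (TMM on the tested rows, glmQLFit and glmQLFTest, Benjamini-Hochberg adjustment) in R 4.3.3, with run and sex in the model as in the study. Calls were made at an FDR threshold of 0.1 with a minimum difference of 1.25-fold. DESeq2 1.42.0 (local fit) and limma 3.58.1 (voom) were alternatives. CPM are deposited counts divided by the total of the library and scaled to 1000000, with exact 95% intervals from SciPy 1.17.1. The run pairing comes from the study's statement that each run held 1 male and 1 female sample. That the replicate number gives the run was assumed. The run differences of the sexes had a Pearson r of 0.567 across 84 microRNAs. The edgeR test was checked on simulated data without run effects, in which the changed microRNAs had a base mean of at least 1. The check therefore does not cover weaker ones such as dps-mir-959. Named microRNAs were the members, the precursors of the locus and further precursors on either side of it. The others were the 5 with the most similar profile, and dps-mir-318 and dps-mir-994 as checks of the sex labels. Members and lists were chosen with earlier results of these data known.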

Additional observations from a re-analysis of the deposited data

How the results depend on the processing

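Neither member had more than 8 reads in a library, so depth limits every statement about them. For dps-mir-964, the alternatives that tested it with all 4 libraries left it uncalled, with an adjusted p between 0.165 (limma-voom) and 0.872 (every microRNA with a read, DESeq2's size factors). With no replicate block it was 0.616. Without the first female library it was 0.993. It fell under the base mean filter without any other single library, and under edgeR's expression filter. With every microRNA with a read tested and 1 library left out, it ranged from 0.832 to 0.934. For dps-mir-959, in fits of every microRNA with a read, settings added after seeing the data gave adjusted p = 0.0948 with no replicate block and 0.0688 in limma-voom, against 0.709 when DESeq2's size factors replaced TMM and 0.45 with total counts only. DESeq2 gave it no adjusted p, and without the second male library it had no read. With 1 library left out it ranged from 0.574 to 0.832. For dps-mir-2509, DESeq2 called it (0.0964), as did, with every microRNA with a read tested, DESeq2 (0.0975), limma-voom (0.0102) and edgeR with no replicate block (0.0453). For dps-mir-2510, with every microRNA with a read tested, edgeR did not call it when either female library or the second male library was left out (0.281 to 0.881). The cause of these changes was not tested.

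The number of microRNAs called was 11, and 17 with DESeq2 and 6 with limma-voom. With no replicate block it was 9. With 1 library left out, and sex alone in the model since 3 libraries cannot carry run and sex, it ranged from 0 to 4. The lone library of a sex is then assumed to vary like the others. The 0 calls came without the second male library (edgeR), where 8 microRNAs had an unadjusted p under 0.05. The share of the members in the second male library was 0.0217% when dps-mir-8 was left out of the total, within the interval given.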
